A study of Mus musculus with 88 samples.

Results

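The proteasome subunit genes were taken from the deposited table as the protein-coding mouse genes whose symbol is Psma, Psmb, Psmc, Psmd or Psme followed by a digit, without pseudogene copies. Of 56065 identifiers in the table, 51272 had a symbol and 45 matched that rule, and 42 were kept at a mean CPM (counts scaled to a common library size) of at least 1 over the 88 libraries. Psma8, Psmb11 and Psme2b fell under the limit, at 0.0177, 0.0125 and 0.337 CPM, and the lowest genes kept were Psmc3ip at 1.44 CPM and Psmb9 at 3.43 CPM. The kept genes comprise 31 constitutive subunits (7 of the alpha ring, 7 of the beta ring, 6 ATPases and 11 non-ATPase subunits of the regulatory particle), 3 immunoproteasome subunits, 3 assembly chaperones, 4 activators and Psmc3ip, which shares the name pattern but encodes no proteasome subunit.

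The libraries were made from tibialis anterior, a fast muscle of the lower leg, in a pair of mouse models of colorectal cancer cachexia, in females and males. In the first, Balb/c mice were injected on both sides with cells of the C26 colon carcinoma line and sampled after 10, 20 or 25 days, while control mice received PBS and were sampled at 25 days. These groups held 7 (PBS), 8, 8 and 6 libraries in females and 8, 8, 7 and 8 in males, and since no PBS mice were sampled at 10 or 20 days, time after injection and tumour cannot be told apart at those days. In the second, mice of 20 weeks of age on a C57 black background carried the Min allele of the tumour suppressor gene Apc (APC+/Min) or were wild type, with 8 wild type and 6 APC+/Min libraries in each sex. The Min allele is carried in every cell, and the mice form tumours in the intestine. The labels do not say that each library came from another mouse, so the p-values measure the spread between libraries, which may be technical.

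The proteasome degrades proteins that carry ubiquitin chains. Its core is a barrel with outer rings of alpha subunits, which gate the entry, and inner rings of beta subunits, of which Psmb5, Psmb6 and Psmb7 cut peptide bonds. The regulatory particle binds the barrel, and its ATPases unfold the substrate while its other subunits receive ubiquitin chains and remove them. Interferon exchanges the cutting subunits for Psmb8, Psmb9 and Psmb10, which make up the immunoproteasome. In wasting muscle the ubiquitin-proteasome system breaks down myofibrillar proteins, and the transcription factor NFE2L1 is known to drive proteasome genes through antioxidant response elements.

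Start-site sequences are shown for Psma7, Psmd4 and Psmd8, which had large changes in APC+/Min muscle, and for Psmb5, which was not called in any comparison. They are RefSeq sequences on GRCm38.p6, written 5′ to 3′ on the strand of the gene, whereas the submitters' processing notes name GRCm39 for the counts. Bases in annotated exons were left out, except for 30 bases around a motif match. Capitals mark TGANNNNGC, the core of the antioxidant response element, or its reverse complement. Psma7 lies on the minus strand, and its match is in chr2:180042415-180042444. Psmd4 lies on the minus strand, with the 250 bases before its start at chr3:95042615-95042864. Psmd8 lies on the minus strand, with upstream bases at chr7:29180702-29180923 and a match downstream of the start in chr7:29180628-29180657. Psmb5 lies on the minus strand, with upstream bases at chr14:54618023-54618245 and a second match in chr14:54617946-54617975.
Psma7 start: gggagggcggggcgctgacggTGAGTGTGC
Psmd4 upstream: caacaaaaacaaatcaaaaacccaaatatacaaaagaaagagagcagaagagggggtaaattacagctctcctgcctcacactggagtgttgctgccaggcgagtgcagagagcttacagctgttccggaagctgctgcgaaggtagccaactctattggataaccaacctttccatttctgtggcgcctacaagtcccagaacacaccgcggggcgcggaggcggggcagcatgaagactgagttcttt
Psmd8 upstream: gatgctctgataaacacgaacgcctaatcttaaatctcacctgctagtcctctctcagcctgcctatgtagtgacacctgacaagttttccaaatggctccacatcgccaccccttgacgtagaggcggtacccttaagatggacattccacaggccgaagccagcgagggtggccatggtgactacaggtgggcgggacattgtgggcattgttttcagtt
Psmd8 start: cggagctgcgGCATGTTCAttaagggtcgg
Psmb5 upstream: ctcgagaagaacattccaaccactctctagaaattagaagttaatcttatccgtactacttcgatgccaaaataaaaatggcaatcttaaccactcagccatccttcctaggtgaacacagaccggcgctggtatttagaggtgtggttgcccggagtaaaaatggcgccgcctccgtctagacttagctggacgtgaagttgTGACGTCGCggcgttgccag
Psmb5 start: tgttgcagcggccgatgccggTGAATCAGC
The upstream bases of Psmd4 and Psmd8 held no match, and those of Psmb5 held 1. Psmb8, an immunoproteasome subunit, lies on the plus strand and is shown for its STAT element, TTCNNNGAA on either strand, in capitals in chr17:34198088-34198117.
Psmb8 upstream: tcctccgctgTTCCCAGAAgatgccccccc
RefSeq windows of 300 bases, from 250 before to 50 after a start, were found for 36 of the 42 genes (39 windows). On either strand TGANNNNGC stood in 23 of these 39 windows (59.0%) and in 15 of 27 windows of constitutive subunits (55.6%), against 41.3% of all 32851 mouse windows. The FoxO core TGTTTAC stood in 0 of the 39 windows against 3.65% of all. TTCNNNGAA stood in 2 (5.13% against 8.3%), and the core of the interferon-stimulated response element (GAAA, any 2 bases, GAAA) in 4 (10.3% against 3.44%). The motifs can overlap one another, and a match in these letters is not a binding site.

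The libraries held between 18.2 M and 30.7 M counts (M stands for mega; median 21.5 M). In female 25 days replicate 6, Xist (RNA from the silenced X) was at only 48.4 CPM and short transcripts were in excess. Its length slope, the slope of the log2 deviation of each gene from its mean on log2 gene length, was -0.39, the lowest in the series. Male 25 days replicate 2 held Xist at 191 CPM beside the Y-linked Ddx3y at 101 CPM. Albumin (Alb), a liver transcript, reached 10 CPM or more in 9 libraries. Summed muscle fibre markers (10 genes) ran from 75107 to 228175 CPM over the APC libraries. In bulk muscle, fewer cells of a type and less RNA per cell cannot be told apart.

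In control muscle the immunoproteasome subunits and the assembly chaperones stood below each of the 31 constitutive subunits. Levels per kilobase of gene length, the mean over control libraries, were highest for the beta subunit Psmb5 at 75.4 CPM per kb, the ATPase Psmc5 at 73.0, the alpha subunit Psma6 at 65.3 and the ATPase Psmc3 at 60.8 CPM per kb. The lowest constitutive subunit was Psmd11, a scaffold of the regulatory particle, at 14.8 CPM per kb. Gene length here is the union of all annotated exons, 899 bases for Psmb5 and 3421 for Psmb7, so these ranks depend on the annotation. In CPM over all libraries Psmb5 stood at 62.5 and Psmb7 at 187. The immunoproteasome subunits stood at 6.19 (Psmb10), 1.76 (Psmb8) and 0.841 CPM per kb (Psmb9), and the chaperones of regulatory particle assembly at 4.50 (Psmd10), 2.15 (Psmd5) and 2.14 CPM per kb (Psmd9). Among the activators, the PA28 subunits Psme1 and Psme2 stood at 14.9 and 10.3, the nuclear PA28 subunit Psme3 at 16.7 and the PA200 activator Psme4 at 27.1 CPM per kb.

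The 31 constitutive subunits summed to 2654 to 2841 CPM in PBS males (median 2786) and to 2806 to 4553 CPM in males at 25 days (median 3618). Males at 20 days lay between 2907 and 3417 CPM, all above every PBS male, and males at 10 days between 2702 and 3021 CPM. In females the medians were 2920 (PBS), 2928 (10 days), 3121 (20 days) and 2818 CPM (25 days). At 25 days 5 of the 6 female libraries lay at or under 2919 CPM, and replicate 6 alone stood at 5486 CPM. In the APC experiment the sum ran from 2640 to 3777 CPM in wild type females (median 3155) and from 3360 to 10110 CPM in APC+/Min females (median 6145). Male wild types ran from 2552 to 3229 CPM (median 2764) and male APC+/Min libraries from 2999 to 12086 CPM (median 4458). In the APC experiment the spread was thus far wider among APC+/Min libraries than among wild types, and in each APC+/Min group 1 or more libraries lay within the wild type range.

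**Figure D1:**
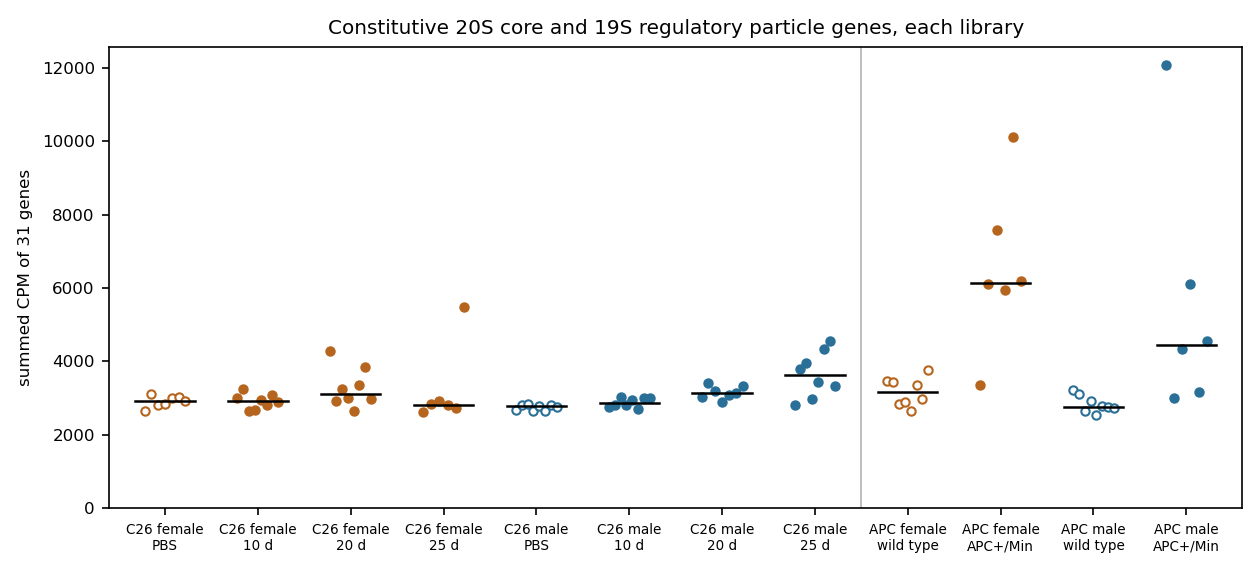
Summed CPM of the 31 constitutive proteasome subunits in each library (vertical axis), for the 12 groups (horizontal axis; brown, females; blue, males; open points, controls; line, group median). All male 20 days libraries lie above the PBS males, and female 25 days replicate 6 stands alone at 5486 CPM.

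Which proteasome genes differ from PBS as a C26 tumour grows was asked with edgeR's quasi-likelihood test with Benjamini-Hochberg adjustment over all 15742 genes tested, a gene being called at an adjusted p below 0.05. In males at 25 days, 23 of the 42 genes were called higher and 0 lower, where 11.6% of all genes tested were called higher and 10.7% lower. All 23 were constitutive subunits: 7 of 7 of the alpha ring, 4 of 7 of the beta ring, 4 of 6 ATPases and 8 of 11 non-ATPase subunits. The median log2 difference of the 31 constitutive subunits was 0.37, with a range from 0.19 to 0.87, and all 31 values were above 0. The median of the 42 genes was 0.35, against 0.01 for all genes tested.

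All 7 alpha ring subunits were called higher in these males. With the length slope as a covariate the calls of Psma2 and Psma6 were lost. Both then differed by 0.15 on the log2 scale (adjusted p = 0.0718 and 0.0962, edgeR). Psma7 (ENSMUSG00000027566) ran from 73.7 to 83.7 CPM in PBS males (median 79.5) and from 83.2 to 225 CPM at 25 days (median 142). Only the lowest library of the tumour group reached into the PBS range. Psma7 rose by a log2 change of 0.87 ± 0.18 (SE; adjusted p = 0.000312, edgeR), with n = 8 in each group. Psma3 ran from 75.9 to 102 CPM in PBS males (median 85.7) and from 88.2 to 194 CPM at 25 days (median 134), and rose by 0.63 ± 0.13 (adjusted p = 0.000404, edgeR). Psma5 and Psma1 rose by 0.68 ± 0.14 and 0.46 ± 0.10 on the log2 scale.

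In the beta ring the structural subunits were called and the cutting ones were not. Psmb1, a subunit without a cutting site, ran from 77.5 to 94.0 CPM in PBS males (median 82.1) and from 90.0 to 171 CPM at 25 days (median 121). It rose by 0.58 ± 0.15 on the log2 scale (adjusted p = 0.00252, edgeR), with the ranges overlapping. Psmb4, another subunit without a cutting site, ran from 85.4 to 105.8 CPM and from 102.4 to 182 CPM (medians 94.3 and 131), and rose by 0.48 ± 0.13 (adjusted p = 0.00347, edgeR). The cutting subunits Psmb5, Psmb6 and Psmb7 differed by 0.19 ± 0.15, 0.36 ± 0.16 and 0.19 ± 0.11 on the log2 scale, with adjusted p of 0.394, 0.0936 and 0.191 by edgeR. Psmb5 (ENSMUSG00000022193) ran from 31.4 to 45.8 CPM in PBS males and from 23.0 to 66.0 CPM at 25 days. The tumour group reached both above and below the PBS range. Whether cutting and structural subunits differed from each other was not tested.

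In the regulatory particle, Psmc2, an ATPase of the base, ran from 77.6 to 89.8 CPM in PBS males (median 85.4) and from 80.4 to 149.9 CPM at 25 days (median 121). It rose by 0.50 ± 0.11 on the log2 scale (adjusted p = 0.000418, edgeR), and the ATPase Psmc6 by 0.32 ± 0.08 (adjusted p = 0.003) from a range of 78.9 to 88.0 CPM to 76.3 to 121 CPM. For both ATPases the lowest tumour libraries lay within or below the PBS range and the rest above it. Psmd4 (ENSMUSG00000005625), the ubiquitin receptor Rpn10, ran from 85.2 to 100.8 CPM in PBS males (median 92.8) and from 98.6 to 225.5 CPM at 25 days (median 153). It rose by 0.72 ± 0.15 (adjusted p = 0.000348, edgeR), the largest change among the non-ATPase subunits in this comparison. Psmd3, a scaffold subunit of the lid, ran from 99.2 to 124.5 CPM and from 113 to 177 CPM (medians 111 and 157), and rose by 0.41 ± 0.08 (adjusted p = 0.000228, edgeR). The other regulatory particle subunits without a call were Psmd8, Psmc4, Psmc5, Psmd1 and Psmd13, with log2 differences of 0.21 (Psmd1) to 0.33 (Psmd8) and adjusted p of 0.061 (Psmc4) to 0.172 (Psmd1, edgeR).

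None of the inducible or accessory genes was called in males at 25 days. Psmb8, Psmb9 and Psmb10 differed by 0.25 ± 0.31, 0.12 ± 0.27 and 0.05 ± 0.22 on the log2 scale, and Psme1, Psme2, Psme3 and Psme4 by -0.22 ± 0.15, 0.31 ± 0.20, -0.02 ± 0.06 and -0.19 ± 0.15. Their adjusted p ran from 0.272 to 0.899 (edgeR). With the length slope of each library as a covariate, 20 genes were called in males at 25 days (21.3% of all genes were), 18 higher, and Psmb10 (-0.37) and Psme1 (-0.48) were called lower. That slope ran from -0.21 to 0.12 in these libraries and from 0.056 to 0.10 in PBS males. With the slope as a covariate the median log2 difference of the 42 genes was 0.16, against 0.35 without it.

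The libraries of the male 25 days group differed widely. Replicates 1 and 4 held the lowest sums, at 2806 and 2964 CPM, and replicates 7 and 6 the highest, at 4553 and 4339 CPM. The number of constitutive subunits above every PBS male ran from 10 to 31 of 31 in these libraries, with a median of 26.5. The median of that number was 10.5 in males at 10 days and 21 in males at 20 days. The share of all genes above every PBS male was not counted for single libraries. Without male 25 days replicate 2 and female 25 days replicate 6, 28 genes were called higher in males at 25 days and 0 lower (28.1% of all genes were called).

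At the earlier days and in females, 0 of the 42 genes were called against PBS by edgeR. At 10 days 0% of all genes tested were called in either sex. An unadjusted p under 0.05 held for 1 (females) and 0 (males) of the 42 genes, against 3.18% and 2.31% of all genes. In females 1.12% of all genes were called higher and 0.54% lower at 20 days, and 2.65% and 1.01% at 25 days. At these days 4 and 5 of the 42 had an unadjusted p under 0.05 in females, where 12.1% and 17.2% of all genes did. In males at 20 days the background was 0.889% higher and 0.0953% lower, and 9 of the 42 had an unadjusted p under 0.05 (10.4% of all genes did). The medians over the 42 genes were 0.02 and 0.05 on the log2 scale at 10 days (females and males), 0.14 and 0.19 at 20 days, and 0.13 in females at 25 days. DESeq2 called 1 of the 42 higher in females at 25 days (5.12% of all genes in either direction) and 0 in the other 4 comparisons. With sample quality weights, limma-voom called 3 in females at 25 days, all lower (9.88% of all genes), with a median over the 42 genes of -0.08, and 1 higher in males at 20 days (2.08%), and 0 in the other 3.

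In males at 20 days Psma7, Psmb4 and Psmd7, a lid subunit, lay above every PBS male in all 7 libraries (0.337% of all genes tested lay above in this way and 0.184% below). Psma7 ran from 93.5 to 127 CPM, Psmb4 from 106.4 to 148 CPM, and Psmd7 from 111.3 to 127 CPM against 93.0 to 103.7 CPM in PBS males. Their log2 differences were 0.36 ± 0.19, 0.26 ± 0.13 and 0.22 ± 0.10, and their adjusted p 0.498, 0.474 and 0.393 (edgeR). In females at 25 days the values nearest to a call were Psmd4 at 0.52 ± 0.17 (adjusted p = 0.0667) and Psma7 at 0.51 ± 0.20 (adjusted p = 0.147, edgeR). For both, replicate 6 was the highest library: Psma7 ran from 77.2 to 306 CPM with a median of 90.6 CPM, and Psmd4 from 95.4 to 294.5 CPM with a median of 108 CPM. Without it and male replicate 2, the median over the 42 genes in females at 25 days was -0.10.

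Whether the sexes responded differently to C26 was tested with an interaction contrast, in which a positive value is a larger change in males. By edgeR 0 of the 42 genes were called at 20 days (0% of all genes) and 0 at 25 days (0.0508% higher and 0.0127% lower). At 20 days 1 had an unadjusted p under 0.05 (3.54% of all genes did), and DESeq2 and limma-voom called 0. At 25 days 8 had an unadjusted p under 0.05 (8.24% of all genes did). DESeq2 called 1 of the 42 higher in males (0.318% of all genes in either direction), and limma-voom called 22, all higher in males (4.26%). Without female 25 days replicate 6 the edgeR count at 25 days was 11 (0.837% of all genes), all higher in males: Psma1, Psma3, Psma4, Psma5, Psma6, Psma7, Psmb2, Psmd7, Psmd11, Psmd12 and Psmd14. It was 1 without PBS female replicate 1, 3 or 4 or male 25 days replicate 1, 4 or 5 (0.0573% to 0.248% of all genes). From 20 to 25 days 0 of the 42 were called in females (0% of all genes) or males (0.661% higher and 0.731% lower). An unadjusted p under 0.05 held for 1 in females and 12 in males, against 7.01% and 15% of all genes. In males DESeq2 called 2 (2.75% of all genes) and limma-voom 11 (6.63%).

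Among controls, Psme4, the PA200 activator, was the only gene of the 42 called between PBS males and females (1.74% of all genes were called higher in males and 0.959% lower). It ran from 127 to 185 CPM in females and from 209.8 to 265 CPM in males, without overlap (2.49% of all genes lay above in this way), and was higher in males by 0.60 ± 0.16 (adjusted p = 0.0214, edgeR). Without PBS female replicate 5 or replicate 6 the call was lost. Psmd2, a base subunit, also did not overlap, with 181 to 192 CPM in females and 203 to 229 CPM in males, and differed by 0.22 ± 0.11 (adjusted p = 0.309, edgeR). The 3 immunoproteasome subunits differed between PBS males and females by -0.73 ± 0.32 for Psmb8, -0.82 ± 0.28 for Psmb9 and -0.61 ± 0.23 for Psmb10, with adjusted p of 0.217, 0.0961 and 0.139 (edgeR). With only the PBS groups in the fit, 19 of the 42 were called between the sexes, 16 of them lower in males and these 3 among them, and 19.7% of all genes were called. Between wild type males and females of the APC experiment 0 of the 42 were called (0.703% of all genes higher and 0.169% lower). An unadjusted p under 0.05 held for 1 of them, against 11.7% of all genes. DESeq2 called 0 (1.85% of all genes) and limma-voom 1 (10.1%).

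**Figure D2:**
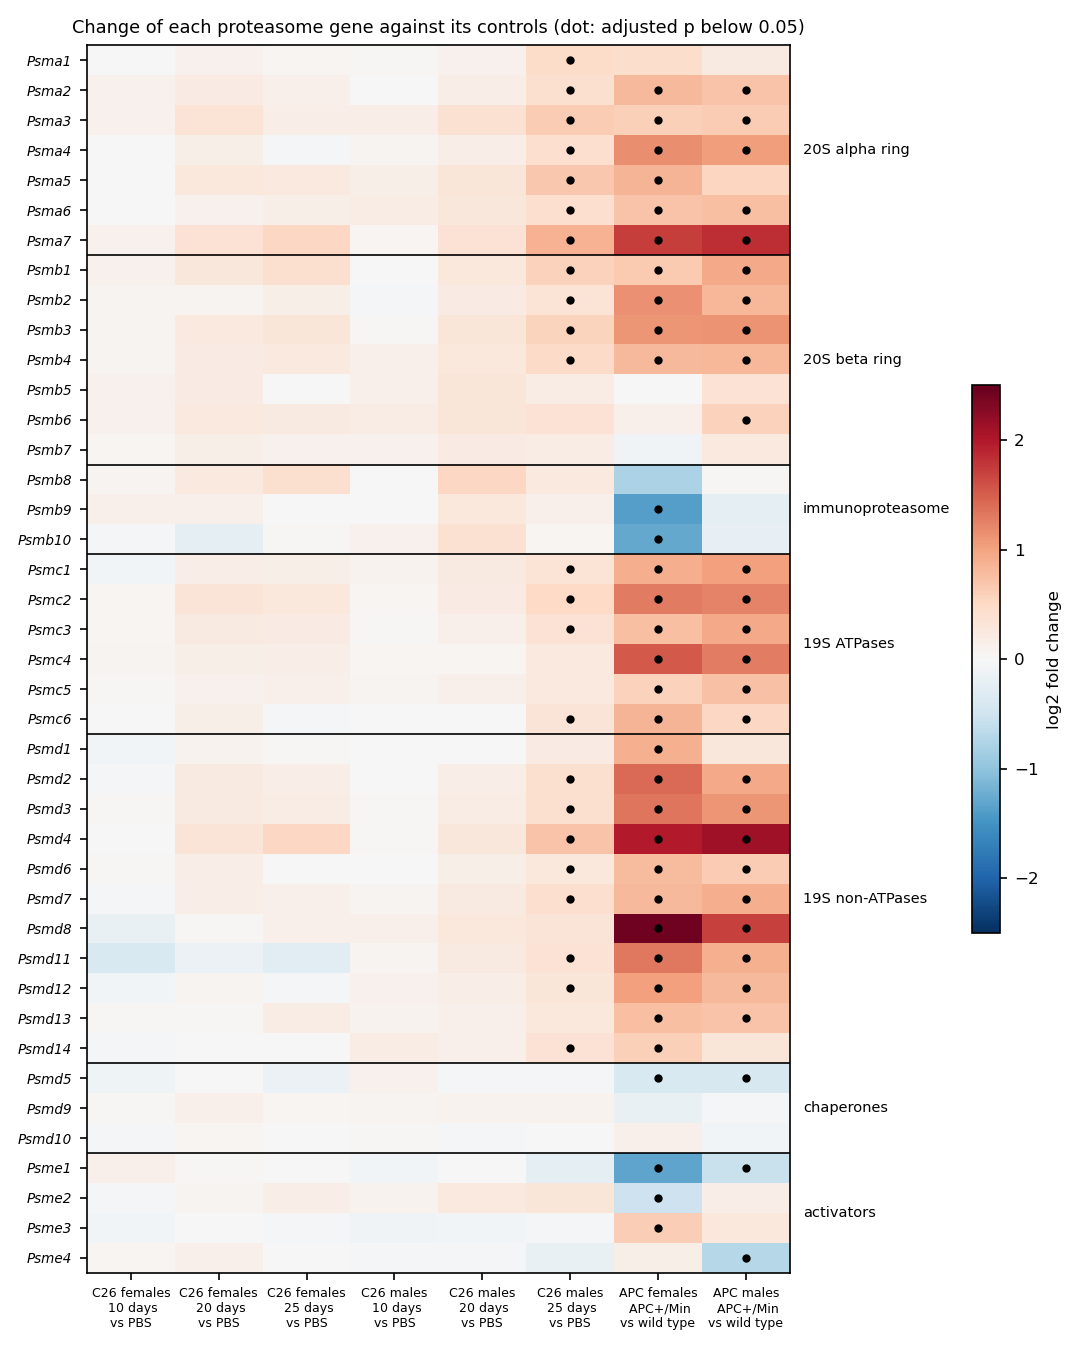
Log2 fold change of each proteasome gene (rows, grouped by class) against its controls in 8 comparisons (columns), as colour, with a dot where edgeR's adjusted p was below 0.05. Of the 31 core and regulatory particle rows, 23 have a dot in C26 males at 25 days, 27 in APC+/Min females and 25 in APC+/Min males, and no gene has a dot in the C26 female columns.

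In APC+/Min muscle most constitutive subunits were called higher in both sexes. In males most of these calls were lost with the length slope as a covariate, as given below. In females 28 of the 42 genes were called higher and 5 lower (20.1% and 17.9% of the 14795 genes tested), and in males 25 higher and 3 lower (16.6% and 16.5%). The median log2 difference of the 31 constitutive subunits was 0.84 in females and 0.83 in males, while the median of all genes was -0.01 and 0.01. In females 6 of 7 alpha, 4 of 7 beta, 6 of 6 ATPase and 11 of 11 non-ATPase subunits were called higher, with Psme3 as the other gene. In males 5 of 7 alpha, 5 of 7 beta, 6 of 6 ATPase and 9 of 11 non-ATPase subunits were called higher. The constitutive subunits without a call were Psma1 and the 3 cutting subunits in females, and Psma1, Psma5, Psmb5, Psmb7, Psmd1 and Psmd14 in males. The cutting subunits Psmb5, Psmb7 and Psmb8, the chaperones Psmd9 and Psmd10, and Psmc3ip were called in none of the 15 comparisons. Experiments were normalized apart and differ in strain, so the sizes of the changes were not tested against each other.

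Psmd8 (ENSMUSG00000030591), a lid subunit, had the largest change of the 42 genes in females. It ran from 77.6 to 109.9 CPM in wild type females (median 97.7) and from 152 to 816 CPM in APC+/Min females (median 532), a log2 change of 2.44 ± 0.29 or 5.42-fold (adjusted p = 6.81e-07, edgeR). In males it ran from 121 to 161 CPM and from 163 to 1028 CPM (medians 136 and 375), a log2 change of 1.71 ± 0.28 or 3.28-fold (adjusted p = 4.98e-05, edgeR). The groups did not overlap in either sex. Psmd4 ran from 89.7 to 172 CPM in wild type females and from 147 to 825 CPM in APC+/Min females (medians 119.6 and 457.5), a 3.97-fold change (log2 1.99 ± 0.36, adjusted p = 0.000118, edgeR). In males it ran from 95.2 to 167 CPM and from 165 to 1471 CPM (medians 99.7 and 332), a 4.32-fold change (log2 2.11 ± 0.36, adjusted p = 8.56e-05, edgeR). Its ranges overlapped only at their ends.

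Psma7 ran from 57.7 to 97.6 CPM in wild type females (median 72.2) and from 76.1 to 421 CPM in APC+/Min females (median 225), a log2 change of 1.72 ± 0.31 (adjusted p = 8.55e-05, edgeR). Male wild types ran from 52.3 to 80.7 CPM (median 57.5) and male APC+/Min libraries from 94.5 to 564 CPM (median 163), without overlap, a log2 change of 1.84 ± 0.31 (adjusted p = 5.94e-05, edgeR). Only the female library replicate 1 of APC+/Min lay within its wild type range. Psma4 rose by 1.16 ± 0.24 in females (adjusted p = 0.000359) and 1.04 ± 0.24 in males (adjusted p = 0.00123, edgeR), from medians of 77.4 and 68.0 CPM to 154 and 114 CPM.

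Of the beta ring, Psmb3, a structural subunit, ran from 55.9 to 97.8 CPM in wild type and 68.3 to 282 CPM in APC+/Min females, and rose by 1.10 ± 0.26 (adjusted p = 0.00118, edgeR). In males it ran from 55.4 to 87.9 CPM and from 76.8 to 283 CPM, and rose by 1.12 ± 0.26 (adjusted p = 0.00133, edgeR). Psmb2 rose by 1.14 ± 0.25 in females (adjusted p = 0.000711), from a median of 48.9 to 87.8 CPM, and Psmb1 by 0.94 ± 0.21 in males (adjusted p = 0.0012, edgeR), from 71.8 to 125 CPM. The groups of these genes overlapped, with the upper APC+/Min libraries well above the wild types. Of the cutting subunits only Psmb6 in males was called. Psmb5 ran from 71.1 to 137 CPM in wild type and 76.6 to 146 CPM in APC+/Min females, a log2 difference of 0.00 ± 0.19 (adjusted p = 0.997, edgeR), and in males from 62.5 to 112 CPM and from 82.1 to 169 CPM, 0.37 ± 0.19 (adjusted p = 0.124). Psmb7 differed by -0.09 ± 0.16 and 0.25 ± 0.16 (adjusted p = 0.702 and 0.238, edgeR), and Psmb6 by 0.13 ± 0.22 in females (adjusted p = 0.681). In males Psmb6 was called at 0.57 ± 0.22 (adjusted p = 0.0401, edgeR), a call lost without any 1 of 9 libraries and turned to -0.11 with the length slope as a covariate.

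All 6 ATPases, which form the unfolding ring, were called higher in both sexes. In males each of these calls was lost with the length slope as a covariate. The log2 differences then ran from 0.18 (Psmc5) to 0.81 (Psmc2), with adjusted p of 0.0582 (Psmc2) to 0.558 (Psmc5, edgeR). Psmc2 ran from 80.4 to 129.9 CPM in wild type and 112 to 389.8 CPM in APC+/Min females (medians 98.1 and 249.8), a log2 change of 1.30 ± 0.24 (adjusted p = 0.000141, edgeR). In males it ran from 76.9 to 117 CPM and from 106 to 431 CPM (medians 84.2 and 165), a change of 1.25 ± 0.24 (adjusted p = 0.000288, edgeR). Psmc6 rose by 0.86 ± 0.19 in females (adjusted p = 0.000698, edgeR), with all APC+/Min libraries (108.8 to 264 CPM) above all wild types (81.1 to 103.8 CPM). Psmc1 rose by 1.02 ± 0.24 in males (adjusted p = 0.00163, edgeR). The male call of Psmc6 was lost without any 1 of 5 libraries. Psmc4 rose by 1.54 ± 0.34 in females and 1.28 ± 0.34 in males. Besides Psmc6 and Psmd8, the subunits Psmd1, Psmd2 and Psmd6, of the base and lid, lay above every wild type in all 6 APC+/Min females (5.43% of all genes did). In males only Psma7 and Psmd8 did so (3.27% of all genes).

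**Figure D3:**
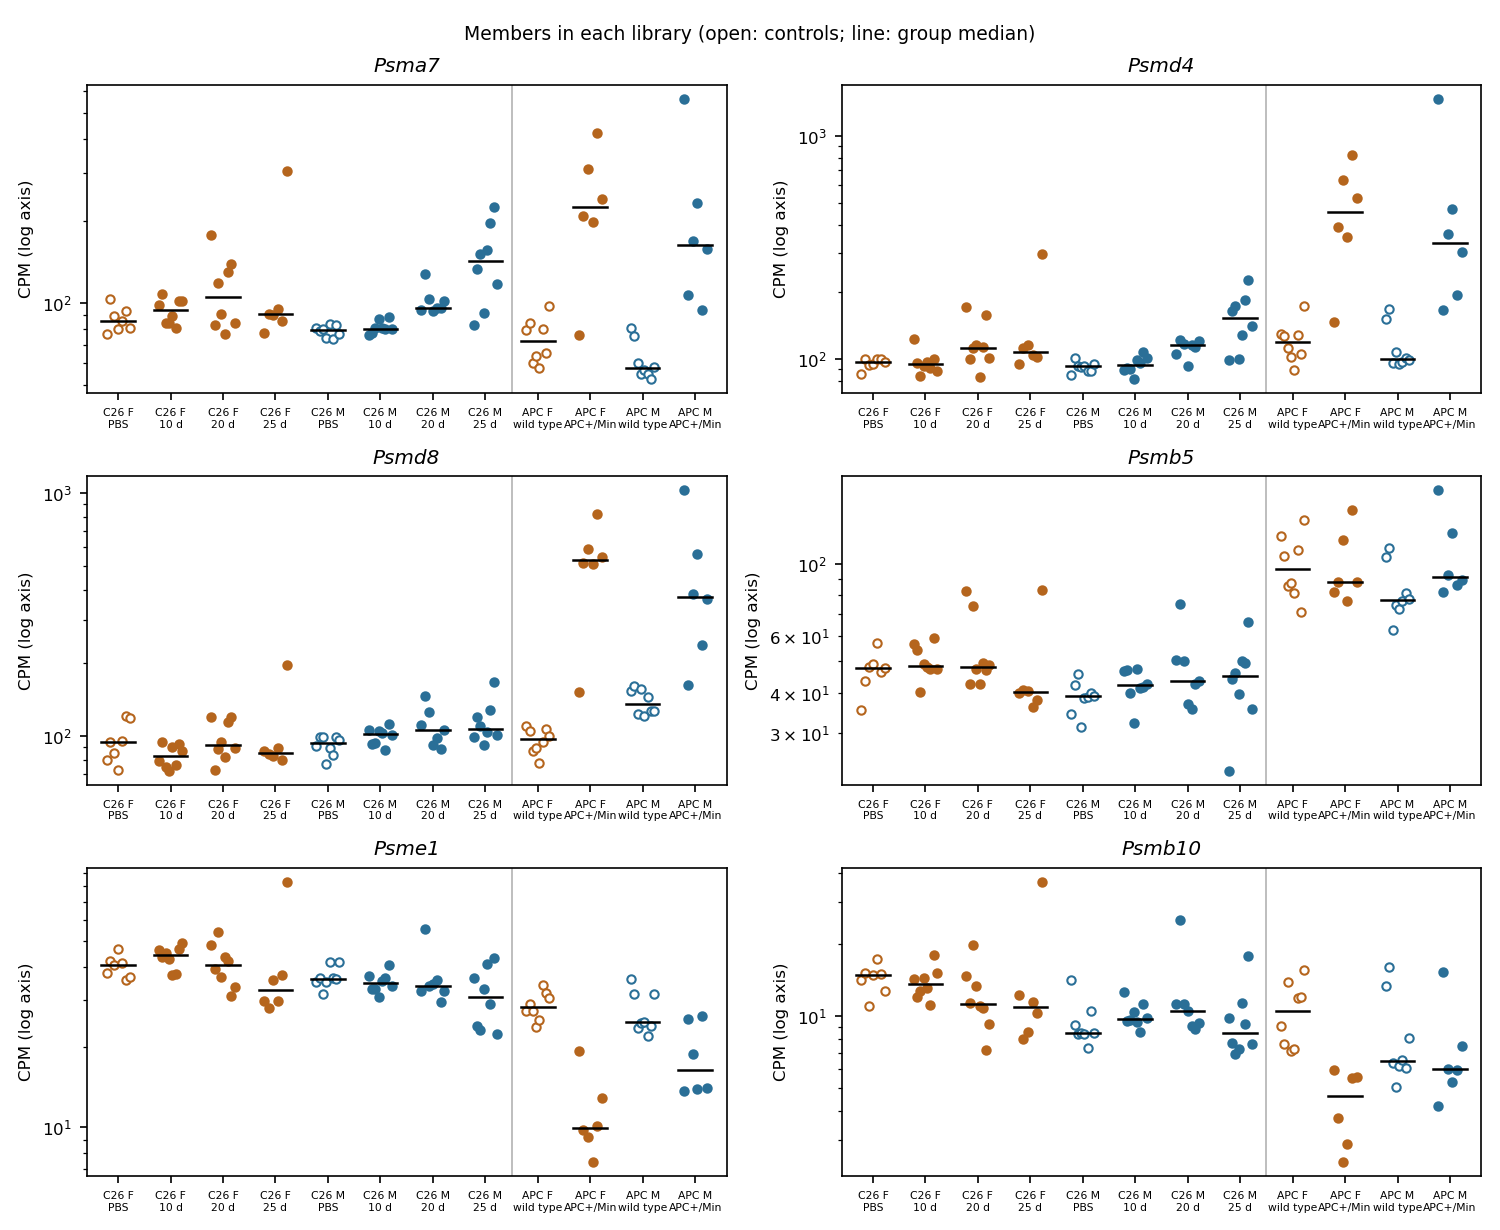
CPM (log axis) of Psma7, Psmd4, Psmd8, Psmb5, Psme1 and Psmb10 in each library (points) by group (horizontal axis; F and brown, females; M and blue, males; open points, controls; line, group median). Psmd8 separates wild type from APC+/Min in both sexes, Psmb5 overlaps throughout, and Psme1 and Psmb10 lie below the wild types in APC+/Min females.

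Of the 3 immunoproteasome subunits, Psmb9 and Psmb10 fell in APC+/Min females and none was called in males. Psmb10 (ENSMUSG00000031897), which replaces Psmb7, ran from 7.15 to 15.6 CPM in wild type and from 2.42 to 5.90 CPM in APC+/Min females (medians 10.5 and 4.59). The groups did not overlap, and Psmb10 fell by 1.29 ± 0.30 on the log2 scale (adjusted p = 0.00143, edgeR). Psmb9, which replaces Psmb6, ran from 1.01 to 7.00 CPM and from 0.435 to 2.42 CPM and fell by 1.39 ± 0.52 (adjusted p = 0.036, edgeR), with overlapping ranges and a call lost without any 1 of 7 libraries. Psmb8, which replaces Psmb5, ran from 2.08 to 10.1 CPM and from 0.737 to 7.36 CPM, a difference of -0.78 ± 0.47 (adjusted p = 0.196, edgeR). In males the 3 differed by -0.20 ± 0.29 (Psmb10), -0.23 ± 0.50 (Psmb9) and 0.03 ± 0.46 (Psmb8), with adjusted p from 0.644 to 0.974 (edgeR).

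PA28, the ring of Psme1 and Psme2, opens the core without ATP and is induced with the immunoproteasome, and of the pair only Psme1 fell in both sexes. Psme1 (ENSMUSG00000022216) ran from 23.7 to 34.2 CPM in wild type and from 7.39 to 19.4 CPM in APC+/Min females (medians 28.2 and 9.93), without overlap, and fell by 1.33 ± 0.19 to 0.40 of the wild type level (adjusted p = 8.63e-06, edgeR). In males it ran from 22.0 to 36.1 CPM and from 13.7 to 26.0 CPM (medians 24.8 and 16.4) and fell by 0.55 ± 0.19 (adjusted p = 0.025, edgeR). The male call was lost without any 1 of 5 libraries, with limma-voom (adjusted p = 0.0576), with the replicate block (0.0528, edgeR) and with only the groups compared (0.0522, edgeR). Psme2 fell by 0.52 ± 0.21 in females (adjusted p = 0.0496, edgeR), from 12.0 to 19.7 CPM to 6.32 to 13.4 CPM, a call lost without any 1 of 10 libraries, and differed by 0.16 ± 0.21 in males (adjusted p = 0.596). Psme3 rose in females by 0.61 ± 0.16 (adjusted p = 0.00359, edgeR), from 49.4 to 60.9 CPM to 54.8 to 105.2 CPM, and differed by 0.26 ± 0.16 in males (adjusted p = 0.217). Psme4 fell by 0.71 ± 0.19 in males (adjusted p = 0.00391, edgeR), from 181 to 325 CPM to 92.3 to 214 CPM, and differed by 0.15 ± 0.18 in females (adjusted p = 0.536). Psmd5, a chaperone that must leave the base before the particle is complete, fell in both sexes, with log2 changes of -0.38 ± 0.14 in females (adjusted p = 0.0282) and -0.40 ± 0.14 in males (adjusted p = 0.0243, edgeR). These calls were lost without any 1 of 7 libraries in females and of 3 in males, and with no filter on low counts (adjusted p = 0.0944 and 0.0727, edgeR). The male call was also lost with the length slope as a covariate and with only the groups compared. Psmd5 ran from 14.6 to 16.6 CPM in wild type and 10.1 to 14.2 CPM in APC+/Min females, and from 11.0 to 17.9 CPM and 7.67 to 13.7 CPM in males. Psmb10, Psmd5 and Psme1 lay below every wild type in all 6 APC+/Min females (4.91% of all genes did), and 0 of the 42 did so in males (3.77%).

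The level of each inducible subunit was also set against the constitutive subunit it replaces, within each library, with both levels taken per kilobase of gene length. Per 100 of Psmb7 the level of Psmb10 was 11.1 in wild type and 4.85 in APC+/Min females. These are means of log2 ratios turned back to a linear scale. Their size depends on the annotated gene lengths, which are the same in every group. The log2 ratio of this pair ran from -3.76 to -2.51 in wild type and from -4.77 to -3.68 in APC+/Min females, and the ranges touched only at their ends. Psmb8 per 100 of Psmb5 stood at 1.13 and 0.553, and Psmb9 per 100 of Psmb6 at 1.12 and 0.432. In males the values were 10.7 and 7.74 (Psmb10), 1.30 and 1.25 (Psmb8), and 0.965 and 0.502 (Psmb9). In PBS mice Psmb10 stood at 15.1 per 100 of Psmb7 in females and 10.5 in males, and in C26 mice at 25 days at 12.7 and 9.41. In females the median ratio of each of the 3 pairs lay lower in APC+/Min than in wild type, and no test was made on the ratios.

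**Figure D4:**
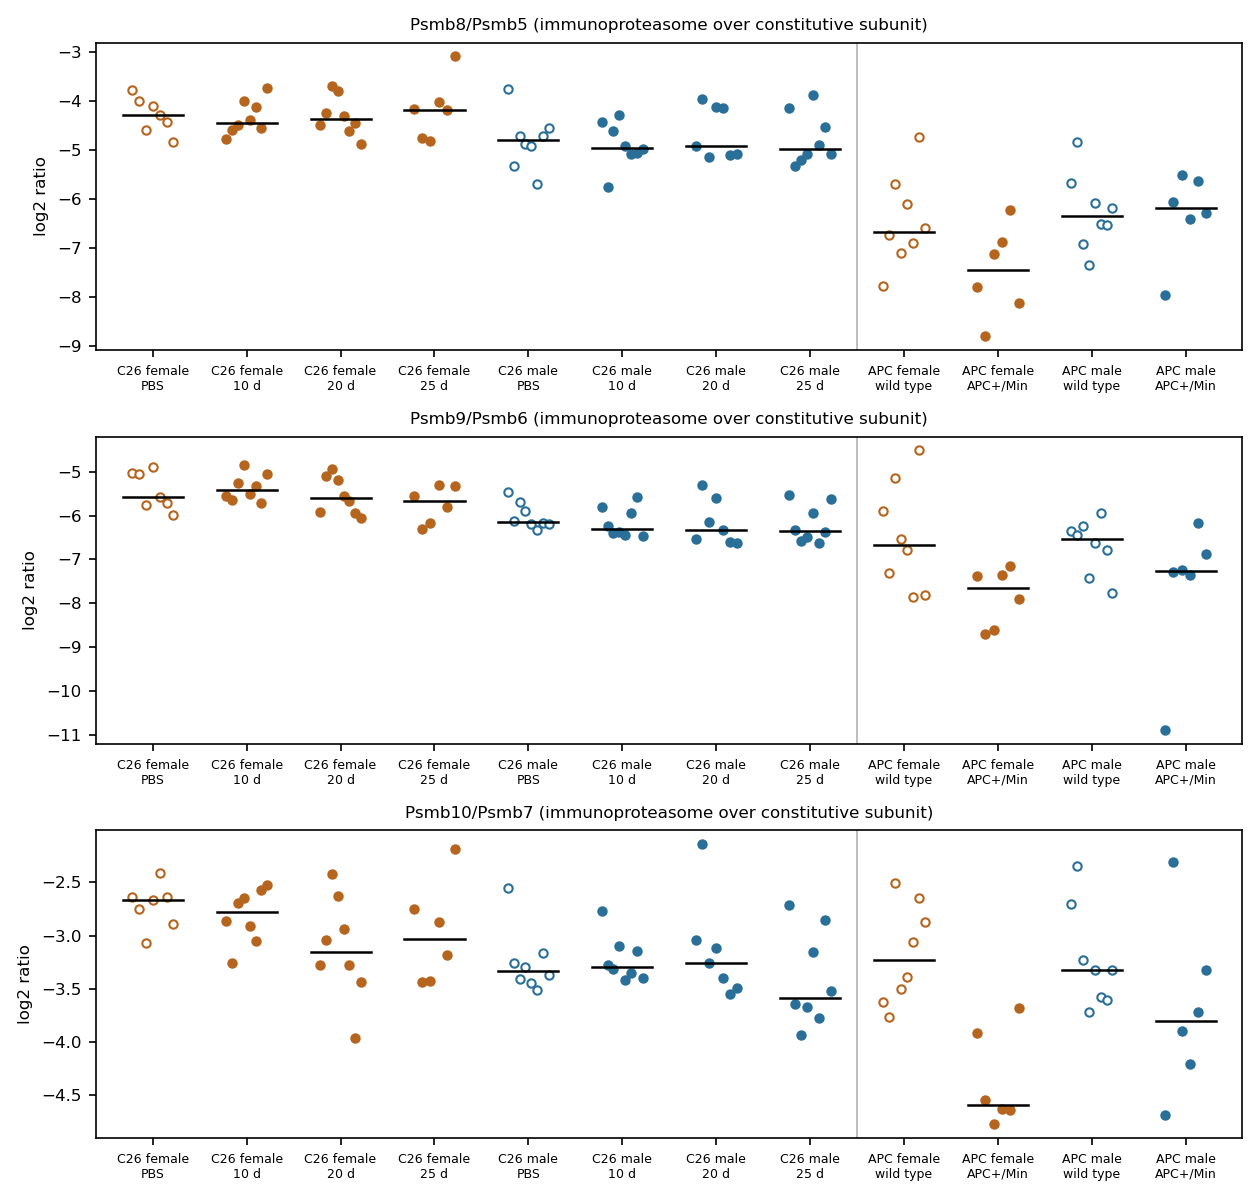
Log2 ratio of each immunoproteasome subunit to the constitutive subunit it replaces, both per kilobase of gene length, in each library (points) by group (brown, females, blue, males, open points, controls, line, group median). In APC+/Min females the 3 medians lie below those of the wild type females, and C26 groups overlap their PBS groups.

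Immunoproteasome genes are abundant in leukocytes, so marker levels are given beside them. The 6 T and NK lymphocyte markers summed to 0.362 to 3.50 CPM in wild type and 0.0377 to 0.294 CPM in APC+/Min females, with Cd8a at 0 in the latter, and 1 of the 1 marker tested was called lower. The 8 macrophage markers summed to 3.81 to 80.6 CPM and 18.0 to 51.8 CPM, with 1 called higher. The 5 neutrophil markers tested were all called higher in APC+/Min females and males, summed over 6 listed at 0.317 to 1.31 CPM and 8.86 to 43.6 CPM in females, and Ly6g was at 0 in every control group. In females 3 of 3 erythroid markers were higher (means of summed CPM 5.58 and 127), 4 of 6 markers of fibro-adipogenic progenitors lower (261 and 122 CPM), 6 of 10 muscle fibre markers lower, and 2 of 6 endothelial markers higher and 2 lower. In males 3 of 3 erythroid markers were higher, 5 of 6 fibro-adipogenic and 3 of 10 muscle fibre markers lower, 1 of 6 endothelial markers higher and 1 lower, 1 of 8 macrophage markers higher, and the 1 lymphocyte marker tested lower. No B lymphocyte or hepatocyte marker passed the filter on low counts in the APC experiment. In C26 males at 25 days 5 of 8 macrophage, 5 of 5 neutrophil, 3 of 3 erythroid, 3 of 5 hepatocyte and 1 of 6 fibro-adipogenic markers were higher, 2 of 6 endothelial markers higher and 2 lower, and 0 of 10 muscle fibre and 0 of 2 B lymphocyte markers called. Their part in the proteasome results was not tested.

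The sexes were compared in their response to APC+/Min as an interaction, and 0 of the 42 genes were called (0.0338% of all genes higher and 0.101% lower in males). An unadjusted p under 0.05 held for 5 of them, against 16% of all genes. DESeq2 called 1 (1.76% of all genes) and limma-voom 8 (14%). The lowest adjusted p among the genes named above was 0.124, for Psme4 at -0.87 ± 0.26, followed by Psme1 at 0.78 ± 0.26 (adjusted p = 0.156) and Psmb10 at 1.09 ± 0.42 (adjusted p = 0.203, edgeR). Of the genes called higher, 24 were shared between the sexes, 85.7% of the 28 in females and 96% of the 25 in males. Of the genes called lower, Psmd5 and Psme1 were shared, 40% of the 5 in females and 66.7% of the 3 in males. The sharing of calls between the sexes was not counted over all genes. By edgeR a difference between the sexes was thus not shown for any of the 42 genes. Of the limma-voom calls, 3 had a more positive change in males and 5 a more negative one. The 1 gene called by DESeq2 had a more negative change in males.

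The male APC+/Min result leaned on 1 library and moved with transcript length. Replicate 1 held 12086 CPM of constitutive subunits, while replicates 2 and 5 held 2999 and 3157 CPM, inside the wild type range. Without replicate 1, 15 genes were called (27.9% of all genes were), 13 higher (Psma4, Psma7, Psmb1, Psmb3, Psmc1, Psmc2, Psmc3, Psmc5, Psmd3, Psmd4, Psmd6, Psmd8 and Psmd12) and 2 lower (Psmd5 and Psme4). The length slope ran from -0.14 to 0.0028 in APC+/Min males (median -0.11) and from -0.083 to 0.14 in wild type males (median 0.038). With it as a covariate 4 genes were called (13% of all genes were), a share of the 42 under that of all genes: Psma7 at 1.27, Psmd4 at 1.36, Psmd8 at 1.36 and Psme1 at -0.80 on the log2 scale. In females the count stayed at 33 with that covariate (42.4% of all genes were called), and between 25 and 33 when any 1 library was left out. Female APC+/Min replicate 1 had the lowest sum of its group, 3360 CPM, and the lowest level of Fbxo32, a muscle ubiquitin ligase, at 802 CPM against 2549 to 3403 CPM in the other 5. Male APC+/Min replicate 2 was also lowest in both, with Fbxo32 at 215 CPM. The most Fbxo32 in these males, 2683 CPM, was in replicate 3 at a sum of 4347 CPM, while replicate 1 held 2049 CPM of it.

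The comparison of C26 males at 25 days with APC+/Min females shares no library. Of the genes called higher, 22 were shared, 95.7% of the 23 in C26 males and 78.6% of the 28 in APC+/Min females. Psma1 was called in C26 males alone, and Psmc4, Psmc5, Psmd1, Psmd8, Psmd13 and Psme3 in APC+/Min females alone. With APC+/Min males 20 were shared, 87.0% of the 23 and 80% of the 25. How many of all genes called were shared was not counted, so these shares have no background beside them. Psmd8 had the largest change in APC+/Min females and was not called in C26 males. Psma7 had the largest change of the alpha ring in both, and Psmd4 the largest of the non-ATPase subunits in C26 males and the next after Psmd8 in APC+/Min females.

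**Figure D5:**
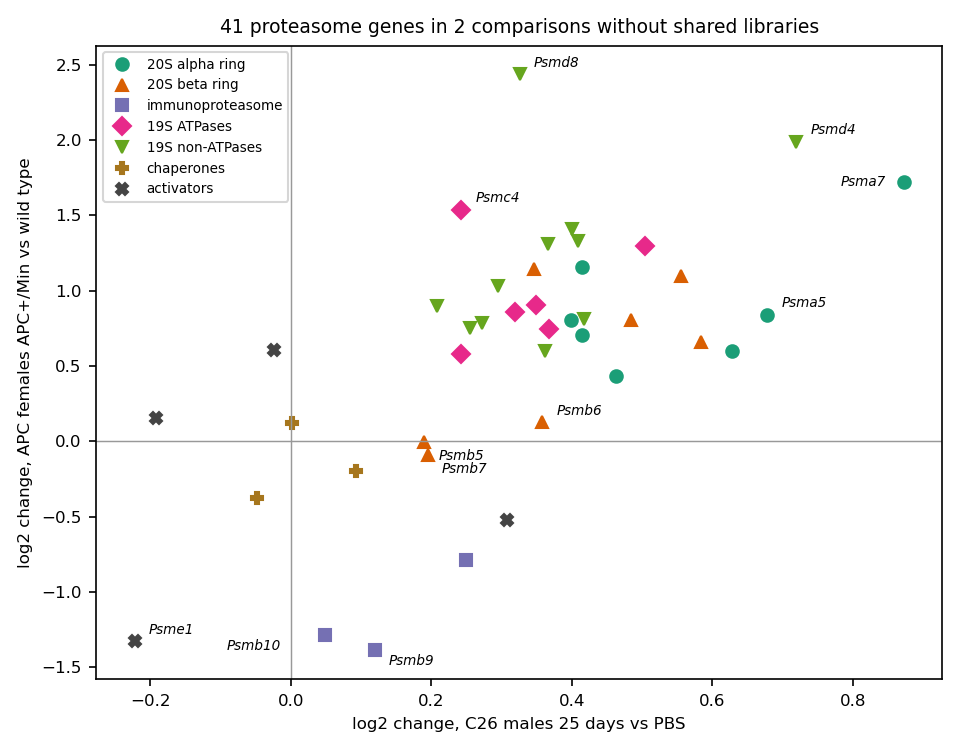
Log2 change of 41 proteasome genes in C26 males at 25 days against PBS (horizontal axis) and in APC+/Min females against wild type (vertical axis), by class (colour and shape). The core and regulatory particle genes lie at positive values on both axes except Psmb5 and Psmb7, and the immunoproteasome genes lie below 0 on the vertical axis.

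Other genes of the pathway were counted from lists. The shares of all genes called higher and lower, to be read beside each count, were 11.6% and 10.7% in C26 males at 25 days, 20.1% and 17.9% in APC+/Min females, and 16.6% and 16.5% in APC+/Min males. Among 13 proteasome genes outside the name rule (inhibitor, assembly factors, ubiquitin receptor and deubiquitinases), 5 rose in C26 males at 25 days and 0 fell (median 0.27), 6 rose and 3 fell in APC+/Min females (median 0.34), and 5 rose and 0 fell in APC+/Min males (median 0.32). Adrm1, the ubiquitin receptor Rpn13, rose by 0.46, 1.43 and 1.23 on the log2 scale in these 3 comparisons, and Psmg4, a core assembly chaperone, by 0.65, 0.85 and 1.05. In APC+/Min females the assembly chaperones Psmg3 (-0.91) and Psmg2 (-0.66) and the lid component Sem1 (-0.55) fell.

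Of 7 genes for transcription factors of the proteasome and their activation, 3 rose in C26 males at 25 days (median 0.40), 5 in APC+/Min females (median 0.97) and 4 in APC+/Min males (median 0.90), and 0 fell. Foxo1 and Foxo3, transcription factors of the atrophy programme, rose by 1.31 and 0.59 in C26 males and by 2.36 and 1.26 in APC+/Min females. Foxo1 rose by 1.80 in APC+/Min males. Nfe2l2, which binds the antioxidant response element, rose by 0.58, 0.94 and 1.07 in the 3 comparisons, and Ddi2, the protease that activates NFE2L1, by 1.26 and 1.33 in APC+/Min females and males. Nfe2l1 itself differed by -0.37 ± 0.18, -0.41 ± 0.23 and -0.45 ± 0.23, with adjusted p of 0.124, 0.154 and 0.126 (edgeR).

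Of 16 genes for ubiquitin, its activation and the delivery of substrates, 6 rose and 0 fell in C26 males at 25 days (median 0.23), 11 and 0 in APC+/Min females (median 0.70), and 7 and 1 in APC+/Min males (median 0.35). The polyubiquitin gene Ubb rose by 0.78, 1.58 and 1.83, Sqstm1, a receptor that links ubiquitin to autophagy, by 0.55 and 1.43 in the first 2, and Nploc4, a cofactor of the unfoldase Vcp, by 2.46 and 1.43 in APC+/Min females and males. Ubqln4, a shuttle factor, fell by 0.66 in APC+/Min males. C26 females showed calls here where the 42 genes had none, 3 higher at 20 days (among them Ubb at 0.50 and Zfand5 at 0.45) and 1 at 25 days (Ubb 0.50). Of all genes, 1.12% were called higher in C26 females at 20 days and 2.65% at 25 days.

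Of 18 ubiquitin ligases and conjugating enzymes linked to muscle atrophy, 5 rose and 2 fell in C26 males at 25 days (median -0.01). In APC+/Min females 7 rose and 4 fell (median 0.20), and in APC+/Min males 3 and 3 (median -0.07). In APC+/Min males both shares were near those of all genes. In C26 males and APC+/Min females the share that rose was above that of all genes, a difference that was not tested. Trim63 (MuRF1) rose by 1.37, 3.38 and 2.71 and Fbxo32 (atrogin-1) by 1.34, 2.60 and 2.10, while Trim32 fell by 1.00 and Asb2 fell by 0.95 in APC+/Min females. In C26 females 3 rose and 0 fell at 20 days (1.12% and 0.54% of all genes), and 3 rose and 1 fell at 25 days (2.65% and 1.01%). Of 12 genes of MHC class I antigen processing and its regulators, 1 rose and 2 fell in C26 males at 25 days (median 0.27), 2 and 1 in APC+/Min females (median -0.40), and 2 and 2 in APC+/Min males (median 0.11), counts near the shares of all genes. Calr, the chaperone calreticulin, rose by 0.36, 0.69 and 0.59. Erap1, an aminopeptidase that trims peptides in the endoplasmic reticulum, fell by 0.25 in C26 males at 25 days and by 0.62 in APC+/Min males, where Tap2, a subunit of the peptide transporter, rose by 0.75. In males at 20 days 0 genes of these 5 lists were called (0.889% of all genes were called higher and 0.0953% lower).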

How the data were processed

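Gene expression was measured by RNA sequencing in 88 libraries. The authors deposited estimated counts per gene for each library, 9.70% of which are not whole numbers. The submitters' processing notes name Salmon (version 1.10.2), edgeR and limma in R (version 4.4.1) with genome builds GRCm39 and mm39. Which step each served, the annotation and the strand setting: not given in the sources used here. Reads shared with near-identical pseudogene copies could be split between them by that counting, so values of single members carry this uncertainty.

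Symbols and gene lengths (the union of exons) came from GENCODE M21, which named identifiers holding 99.0% of the counts. Counts were rounded and tested in R 4.3.3 with edgeR 4.0.16 (TMM, filterByExpr by group at a count of 10 or more and a total of 15 or more, robust glmQLFit, glmQLFTest). The C26 and APC experiments were fitted apart, each with 1 mean per group, and p-values were adjusted over all genes tested. Levels are TMM-normalized CPM, and the counts of a gene set its precision. The alternatives used DESeq2 1.42.0 and limma 3.58.1. In simulated data the edgeR fit recovered 44% of genes changed 1.5-fold and 68% changed 2-fold in C26 males at 25 days (15535 genes), and 10% and 36% in APC females (14452 genes). Only 50 genes were changed at each fold, far fewer than were called in the data. An adjusted p below 0.05 was therefore harder to reach in the simulation, and these shares are not the recovery in the data.

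Groups and replicate numbers come from the titles. Of the comparisons checked for pairing, same-numbered libraries deviated together in every pair in C26 males at 20 days against PBS alone (7 pairs, mean r = 0.162, lowest 0.104), where the fit with the number as a block called 0 members, as did the fit without it.

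The members, classes, pathway lists and markers were chosen with earlier results of these data known. Genes described in full are the catalytic pairs, the activators and, per class and comparison, the 2 called members with the lowest adjusted p. From the pathway lists, up to 3 called genes per direction and comparison with the largest changes, and Fbxo32, Trim63 and Nfe2l1, could be named; some genes of these lists are not reported here by name. No sequence coordinates were converted between builds.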

Additional observations from a re-analysis of the deposited data

Results flagged for a closer look

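Within each group of 4 to 10 libraries, the highest or lowest library was compared with its nearest neighbour relative to the range of the group (Dixon's 95% limit), for the class sums and for the catalytic pairs and activators. Of 216 such groups, 45 (20.8%) held a library that stood apart, where chance gives about 1 in 20, and the genes share libraries, so these are not independent.

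Female 25 days replicate 6 stood above its group in the constitutive sum (5486 CPM, next 2919 CPM) and in the sums of the ATPases (1075 CPM), non-ATPase subunits (1781 CPM), alpha ring (1135 CPM), beta ring (1495 CPM) and immunoproteasome (85.5 CPM). In that library Psmb5 was at 83.1 CPM, Psmb6 at 254 CPM, Psmb7 at 335 CPM, Psmb8 at 36.5 CPM, Psmb9 at 12.3 CPM and Psmb10 at 36.7 CPM. Psme1 was at 83.5 CPM and Psme2 at 70.5 CPM, while Psme3 stood below its group at 35.1 CPM. This is the library with the lowest length slope (-0.39).

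Male 20 days replicate 2 stood above its group in the alpha ring (689.6 CPM), beta ring (923 CPM), chaperones (44.0 CPM) and immunoproteasome (51.9 CPM), and below it in the activators (227 CPM). Psmb5 was at 75.0 CPM, Psmb6 at 172 CPM, Psmb8 at 18.1 CPM, Psmb9 at 8.52 CPM, Psmb10 at 25.3 CPM, Psme1 at 55.6 CPM and Psme2 at 36.6 CPM in it. Psme4 was low there, at 94.8 CPM. Its length slope was -0.22.

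Male APC+/Min replicate 1 stood above its group in the constitutive sum (12086 CPM, next 6102 CPM), the ATPases (2447 CPM), the non-ATPase subunits (6187 CPM) and the alpha ring (1775 CPM). Male APC+/Min replicate 2 stood above its group in Psmb10 (15.3 CPM). Female APC+/Min replicate 5 stood above its group in the immunoproteasome (15.2 CPM), Psmb6 (176 CPM), Psmb7 (274 CPM), Psmb8 (7.36 CPM) and Psmb9 (2.42 CPM). PBS male replicate 1 stood above in the immunoproteasome (27.9 CPM) and Psmb10 (14.2 CPM), and male 25 days replicate 7 in Psmb10 (17.8 CPM). Female 20 days replicate 3 was high in Psmb9 (10.9 CPM) and low in Psme3 (36.4 CPM). Among wild type males, replicate 2 was high in Psmb8 (14.6 CPM) and replicate 4 in the chaperones (43.2 CPM).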

How the results depend on the processing

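The number of the 42 genes called in APC+/Min males was 28 (33.1% of all genes were called). It was 4 with the length slope as a covariate (13%) and 15 without male APC+/Min replicate 1 (27.9%). With only the groups compared and the replicate block, which was added after seeing the data, it was 7 (13%). Over single libraries left out it ran from 15 to 29. In C26 males at 25 days the count stayed within 1.5 times of 23 under every alternative run (20 to 26 over single libraries), and in APC+/Min females within 1.5 times of 33 (25 to 33). Psmb6 in APC+/Min males was -0.11 with the length slope as a covariate. Over all members, comparisons and alternatives, 165 single-gene results lost their call and 190 gained one. DESeq2 size factors moved the median of all genes by at most 0.05.

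Counts of 0 gained calls as follows, with the share of all genes called in either direction in the same fit in brackets. With limma-voom and quality weights they were 22 in the C26 interaction at 25 days (4.26%), 11 in C26 males 25 against 20 days (6.63%) and 8 in the APC interaction (14%). They were 3 in C26 females at 25 days (9.88%), 1 in C26 males at 20 days (2.08%) and 1 in wild type males against females (10.1%). PBS males against females went from 1 (2.7%) to 15 (21.7%). DESeq2 gave 2 in C26 males 25 against 20 days (2.75%) and 1 each in C26 females at 25 days (5.12%), the C26 interaction at 25 days (0.318%) and the APC interaction (1.76%). The length slope gave 4 in C26 males 25 against 20 days (4.62%), 2 in the C26 interaction at 25 days (0.47%), 1 in C26 females at 20 days (3.02%) and 2 in PBS males against females (2.67%). Without the libraries rich in Alb 1 was called in each of C26 males 25 against 20 days (4.79%), the C26 interaction at 25 days (0.216%) and the APC interaction (1.97%). Without male 25 days replicate 2 and female 25 days replicate 6 the C26 interaction at 25 days gave 13 (1.19%) and C26 males 25 against 20 days 3 (1.8%). With only the groups compared, PBS males against females gave 19 (19.7%), wild type males against females 2 (4.34%) and C26 males at 20 days 1 (0.874%). The cause of these shifts was not tested.

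Leaving out single libraries gave 0 to 11 calls in the C26 interaction at 25 days. It gave 11 without female 25 days replicate 6 (0.837% of all genes). It gave 1 without PBS female replicates 1, 3 or 4 or male 25 days replicates 1, 4 or 5 (0.0573% to 0.248%). The APC interaction gave 0 to 1 (1 without female or male APC+/Min replicate 1, 3.4% and 4.08% of all genes). PBS males against females gave 0 to 2 (0 without PBS female replicate 5 or 6, 1.56% and 1.62%, and 2 without replicate 3, 2.48%). C26 females at 25 days gave 0 to 1 (1 without replicate 1, 4 or 5, 3.13% to 4.66%). C26 males 25 against 20 days gave 0 to 3. These were 3 without male 25 days replicate 1 (3.76%), 2 without replicate 4 (5.23%) and 1 without male 20 days replicate 2 or 5 (2.99% and 1.46%). In the other comparisons with a count of 0 it stayed at 0.

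With the replicate number as a block (replicate block), the counts were 22 in APC+/Min males (26.2% of all genes), 31 in APC+/Min females (32.4%) and 23 in C26 males at 25 days (20.9%). The count was 0 in C26 males at 20 days (0.623%), the only comparison checked in which same-numbered libraries deviated together in every pair. With the block and only the groups compared, the counts were 16 in C26 males at 25 days (12.4%) and 29 in APC+/Min females (42.5%). They were 11 in PBS males against females (15.5%) and 1 in wild type males against females (2.37%).

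Depth limits Psmb8, Psmb9 and Psmc3ip most, which lie at a few CPM, and changes near 1.5-fold were often missed in simulated data, which held few changed genes. Experiments differ in strain and were normalized apart. There is no control group at 10 or 20 days, and bulk counts do not separate cell number from RNA per cell. Length slopes and cell markers moved with the groups, and their part was not tested beyond the covariate.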
